A study of Mus musculus with 24 samples.

Results

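The Zn response of Baf180 knockdown (KD) myoblasts was compared with that of control myoblasts by RNA-seq, using 8 of the 24 libraries of the series. The study describes the cells as C2C12, an established mouse line of skeletal muscle myoblasts, kept proliferating, whereas the deposited labels call them primary myoblasts. Each line was a puromycin-selected population carrying a lentiviral shRNA, either against *Baf180* (gene symbol *Pbrm1*) or a scrambled sequence (scr control). The study lists 2 shRNA sequences against *Baf180* and does not say which was used for these libraries. Each line was grown untreated or with 50 µM ZnSO4, and each of these 4 groups had 2 replicate libraries. Groups follow the sample titles, which the columns of the count table repeat. A separate treatment tag of the labels goes against them: it reads Cu for every Baf180 KD library and None for every scr library, whatever metal the title names, so the meaning of Zn and untreated here rests on the titles. All groups shared the lentiviral vector and the selection, and KD cells of 1 target were compared with cells of 1 scrambled control. An effect of the knockdown and any other difference between these populations therefore cannot be told apart. The quantity measured for each gene was the log2 change with Zn in Baf180 KD cells minus the log2 change with Zn in scr cells. This difference is called higher when the change in the KD line lay above that in scr cells, and lower when it lay below. Values after ± are standard errors (SE) of the fit unless said otherwise. The members are the genes that passed the test of this difference both with and without a correction for the GC content and length of the transcript: 747 of 16345 genes.

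Zinc is a cofactor of many enzymes and a structural part of zinc finger proteins, and cells hold its free level low. The transcription factor MTF1 senses excess zinc, binds metal response elements and turns on the metallothioneins, small cysteine-rich proteins that bind zinc and copper, and *Slc30a1*, which exports zinc across the plasma membrane. BAF180 is a bromodomain-rich subunit found in PBAF, one of the forms of the SWI/SNF complex that slides and evicts nucleosomes using ATP. BAF250A belongs to the BAF form, and BRD9 to the non-canonical form.

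The promoter windows of 3 genes that MTF1 is known to control are shown because the measurements on the metal genes return to them. Each window holds 250 bases before and 50 bases after the annotated start in RefSeq, build GRCm38.p6, on the strand of the gene. Capitals mark every match to TGCNCNC, the core of the metal response element, read on either strand. The windows are chr8:94178839-94179138, plus strand, for *Mt1*, chr8:94172368-94172667, plus strand, for *Mt2*, and chr1:191906531-191906830, plus strand, for *Slc30a1*. In the GENCODE annotation of GRCm38 the genes themselves lie at chr8:94179082-94180327 (*Mt1*), chr8:94172664-94173568 (*Mt2*) and chr1:191906767-191913247 (*Slc30a1*).
Mt1: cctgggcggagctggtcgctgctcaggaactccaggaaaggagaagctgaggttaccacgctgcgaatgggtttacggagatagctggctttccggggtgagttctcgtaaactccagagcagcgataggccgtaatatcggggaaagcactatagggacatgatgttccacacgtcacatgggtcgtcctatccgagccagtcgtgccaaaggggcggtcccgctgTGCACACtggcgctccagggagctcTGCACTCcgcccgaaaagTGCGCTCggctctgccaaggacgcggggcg
Mt2: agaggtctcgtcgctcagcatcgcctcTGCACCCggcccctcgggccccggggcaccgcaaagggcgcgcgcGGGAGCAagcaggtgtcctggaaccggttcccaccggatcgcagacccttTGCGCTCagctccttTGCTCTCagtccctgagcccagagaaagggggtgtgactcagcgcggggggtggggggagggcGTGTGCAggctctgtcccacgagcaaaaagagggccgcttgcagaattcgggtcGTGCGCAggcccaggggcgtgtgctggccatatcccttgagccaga
Slc30a1: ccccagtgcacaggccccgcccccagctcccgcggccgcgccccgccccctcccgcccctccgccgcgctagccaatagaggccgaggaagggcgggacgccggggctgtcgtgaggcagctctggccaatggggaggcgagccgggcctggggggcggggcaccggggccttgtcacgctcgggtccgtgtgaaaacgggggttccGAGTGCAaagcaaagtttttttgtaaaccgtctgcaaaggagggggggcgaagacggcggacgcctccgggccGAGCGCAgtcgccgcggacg
The core occurred 1 time before and 2 times after the start in the window of *Mt1*, 5 times before and 1 time after the start in that of *Mt2* and 1 time before and 1 time after the start in that of *Slc30a1*. Of 32851 mouse promoter windows of this length, 51.0% held at least 1 match and 7.1% at least 3. Among the members that had a window, 59.6% of 552 held at least 1 match, beside 59.8% of the 10763 tested genes with a window.

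Total counts of the 8 libraries ran from 13979295 to 75179394. The knockdown was visible at the target in every KD library. *Pbrm1* stood at 143 and 99.9 in untreated scr cells, 222 and 227 in scr cells with Zn, 65.8 and 75.7 in untreated Baf180 KD cells and 51.0 and 63.1 in Baf180 KD cells with Zn (CPM, the count relative to the library total, scaled by TMM). All 4 KD libraries lay below all 4 scr libraries, and the corrected log2 difference between the lines was -1.09 without Zn (adjusted p = 2.32e-07) and -1.71 with Zn (adjusted p = 2.01e-10). Defining myoblast genes were high throughout and differed between the lines. The sum over 8 genes was 4503 and 5043 CPM in untreated scr cells, 3448 and 3648 in scr cells with Zn, 2221 and 2413 in untreated Baf180 KD cells and 2224 and 2434 in Baf180 KD cells with Zn. Of 7 neural markers 3 were tested, and they also set the lines apart, at 104 and 114 CPM in untreated scr cells, 90.0 and 95.4 in scr cells with Zn, 13.0 and 13.6 in untreated KD cells and 12.2 and 15.1 in KD cells with Zn. Sums over the 8 libraries were 17.1 to 23.4 CPM for the 4 macrophage markers tested, 16.4 to 23.7 for 2 adipocyte, 0.659 to 6.08 for 2 endothelial and 1.23 to 2.74 for 3 epithelial markers. The part of these differences in the results was not tested.

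The 8 libraries differed in base composition. The slope of a gene's log2 level on GC content, per 10 percentage points and relative to the mean of all libraries, was 0.0991 and 0.302 in the 2 untreated scr libraries and -0.2601 and -0.3572 in the 2 scr libraries with Zn. In Baf180 KD cells it was 0.0016 and -0.156 without Zn and 0.227 and -0.003 with Zn. Zn treatment of scr cells therefore coincided with a shift toward AT-rich transcripts that the KD cells did not share. Untreated scr replicate 1 lay within the range of the KD libraries. Slopes also varied between replicates elsewhere in the series, at 0.219 and -0.1222 in the 2 Cu-treated scr libraries. The share of counts in 10 genes linked to ribosomal RNA or satellite repeats set untreated scr cells apart: 4.81% and 1.71% there, 0.126% in each scr library with Zn and 0.180% to 0.817% in the KD libraries. The library labelled untreated scr replicate 2, with the steepest positive GC slope of the 8, moved most counts of genes given here. Counts in the corrected test without it are given with most lists.

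Without a correction, the 2 Zn responses differed in 4742 of 16524 genes (28.7%; edgeR quasi-likelihood test, Benjamini-Hochberg adjusted p under 0.05), 2660 of them higher (16.1%) and 2082 lower (12.6%) in Baf180 KD cells. These calls followed GC content. Over 12857 protein-coding genes the Spearman correlation of the difference with GC content was 0.66, given as a description because all genes come from the same libraries. In the lowest decile of GC content the median difference was -1.05 and 70.8% of genes passed, while in the highest decile the median was 0.49 and 42.8% passed. After the trends on GC content and length were removed from each library, the correlation with GC content was 0.053, the median of the lowest decile was -0.15 and 998 of 16345 genes passed (6.11%), 492 higher (3.01%) and 506 lower (3.1%). Without untreated scr replicate 2 these counts were 1883 uncorrected and 41 corrected.

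**Figure D1:**
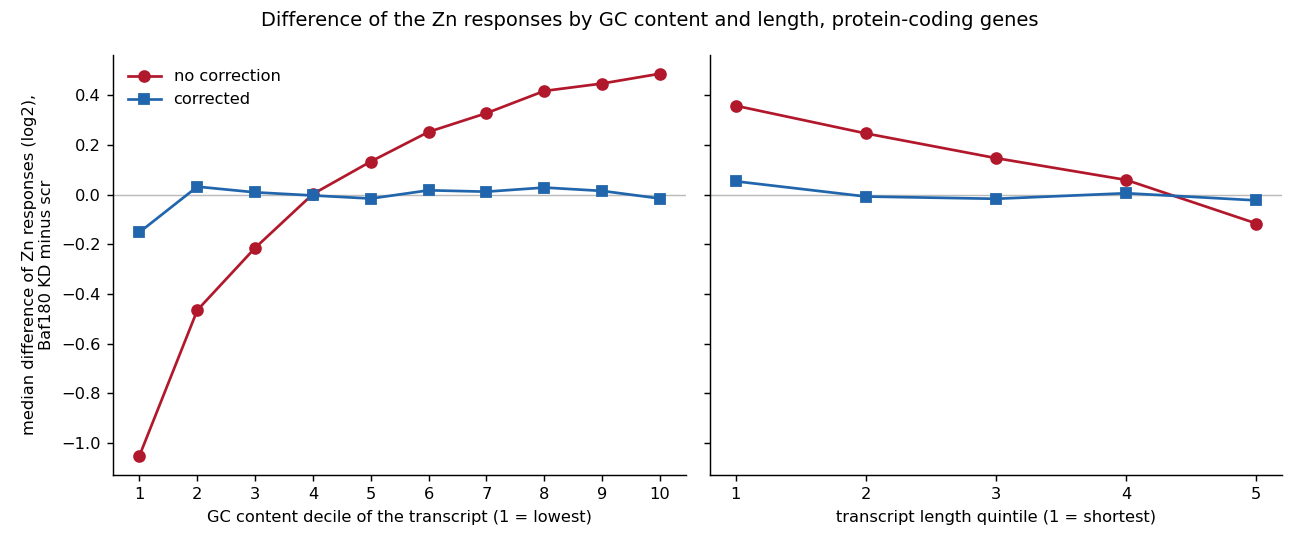
Median log2 difference of the Zn responses (Baf180 KD minus scr, vertical axis) of protein-coding genes in 10 classes of GC content (left) and 5 classes of transcript length (right), without (red circles) and with (blue squares) the correction. The uncorrected medians climb from -1.05 to 0.49 with GC content, and the corrected medians stay between -0.15 and 0.054.

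Both tests were passed with the same sign by 747 genes (4.57% of those tested), the members described here. They made up 15.8% of the genes called without the correction. Of the members, 335 were higher (2.05%) and 412 lower (2.52%), and 695 were protein-coding. Their median absolute difference was 1.06 without and 0.75 with the correction, and 224 differed by at least 1 on the log2 scale after it. A further 3 genes passed both tests with opposite signs, 3992 lost the call and 248 passed with the correction alone. The higher members were short, with a median transcript of 1619 bases and a median GC content of 51.3%, and the lower members were long and AT-rich, with 3498 bases and 43.8%. Over all tested genes the medians were 2684 bases and 49.7%. This profile follows in part from the rule, because a member also had to pass the uncorrected test, whose calls followed GC content. After the correction, the Spearman correlation of the difference over protein-coding genes was 0.053 with GC content and -0.056 with length.

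The sign of the corrected difference stayed the same for all 747 members when each of the 8 libraries was left out in turn. These fits share most libraries with the test that chose the members, so the kept sign follows in part from that choice. The number that passed did not stay the same. Without untreated scr replicate 2 only 39 genes were kept, 14 higher and 25 lower, and without untreated scr replicate 1 the number was 1057. Leaving out the other 6 libraries gave 112 to 594. With both replicates 2 of scr left out, 2 genes were kept, and with both replicates 1 left out, 543. The 8 fits that each left out 1 library had 34 members in common that passed the corrected test. With RLE size factors in place of TMM 837 genes were kept, 231 higher and 606 lower, and DESeq2 kept 749, 208 higher and 541 lower, so that the balance of directions, though not the sign of any member, moved with the scaling.

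**Figure D2:**
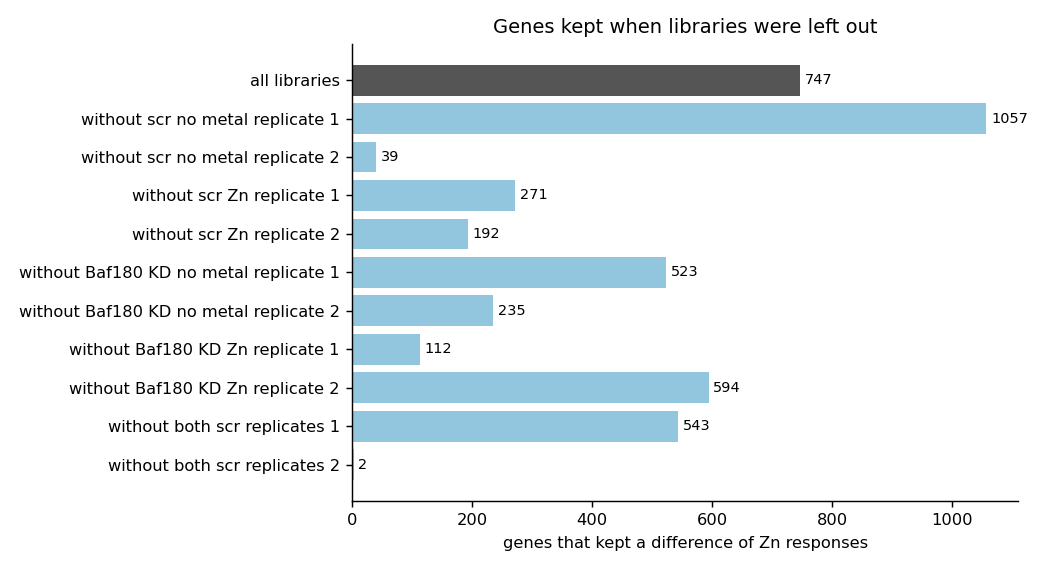
Number of genes that kept the difference (horizontal axis) in the fit of all libraries (grey, 747 genes) and in fits that left out the libraries named on the vertical axis (blue). The shortest bars belong to the fits without untreated scr replicate 2, with 39 genes, and without both scr replicates 2, with 2 genes.

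Most members changed in scr cells and not detectably in Baf180 KD cells. Zn changed 1260 genes in scr cells after the correction (7.71%), with 628 risen (3.84%) and 632 fallen (3.87%). It changed 21 in Baf180 KD cells (0.128%), with 5 risen (0.0306%) and 16 fallen (0.0979%). Among the 335 higher members, 258 fell in scr cells with no call in KD cells, 76 passed in neither line and 1 rose in KD cells alone. Among the 412 lower members, 338 rose in scr cells with no call in KD cells, 66 passed in neither line, 5 fell in KD cells alone, 1 rose in scr and fell in KD cells, and 2, *Mt1* and *Mt2*, rose in both. A response without a call is not shown to be absent, and the KD estimates were often on the other side of 0: 326 of the higher and 405 of the lower members had responses of opposite sign. The median response of the higher members was -0.42 in scr and 0.24 in KD cells, and that of the lower members 0.57 and -0.26. Both responses enter the difference that chose the members, so the opposite signs and these medians follow in part from that choice. They are given as description, and the same count over all genes is not given here. Without untreated scr replicate 2 the corrected count for scr cells was 18 genes.

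**Figure D3:**
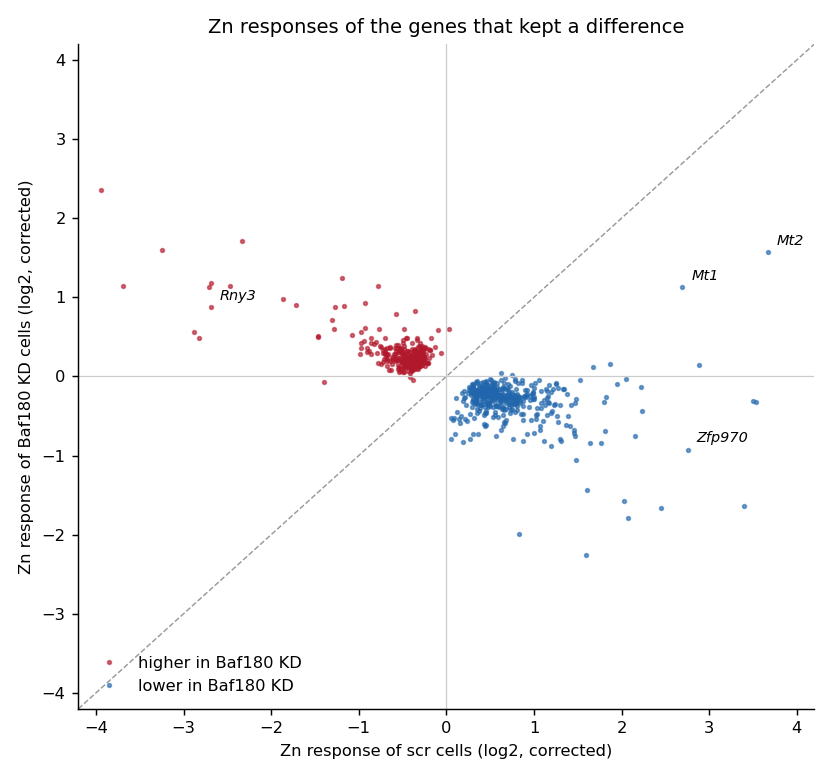
Corrected log2 Zn response in scr cells (horizontal axis) and in Baf180 KD cells (vertical axis) of 737 of the 747 members, those within the axes, red where the difference was higher and blue where it was lower in KD cells. The dashed line marks equal responses. Most points lie farther from 0 along the scr axis than along the KD axis, and *Mt1* and *Mt2* are positive on both.

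The lines already differed before Zn was added. Of the higher members, 246 were lower in untreated KD cells than in untreated scr cells and 18 were higher. Of the lower members, 220 were higher in untreated KD cells and 35 were lower. These comparisons share the untreated libraries with the difference of responses, so they are given as side-by-side counts and not as separate evidence. They stand beside 6467 genes called between the untreated lines (39.6%), 20.3% of all genes higher and 19.3% lower in KD cells. With Zn, 139 of the higher members were higher and 8 lower in KD cells, and 260 of the lower members were lower and 30 higher, beside 5992 genes called (36.7%), 19.7% higher and 17% lower. The distance between the lines was smaller with Zn than without it for 226 of the higher and 186 of the lower members. The line difference with Zn minus that without Zn equals the difference of responses that chose the members. These counts therefore follow in part from that choice and do not show that Zn brought the lines closer. The same count over all genes is not given here.

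Metallothioneins rose with Zn in both lines, by less on the log2 scale in Baf180 KD cells, from a higher starting level. *Mt1* stood at 55.2 and 65.1 in untreated scr cells, 312 and 284 in scr cells with Zn, 282 and 218 in untreated Baf180 KD cells and 726 and 507 in Baf180 KD cells with Zn CPM. Both Zn libraries lay above both untreated ones in each line, and untreated KD cells came near to the Zn-treated scr level. The corrected rise was 2.69 in scr cells (adjusted p = 8.03e-09) and 1.13 in KD cells (adjusted p = 0.00370), a difference of -1.56 ± 0.24 (adjusted p = 0.00241). *Mt2* stood at 18.2 and 20.8 in untreated scr cells, 198 and 190.4 in scr cells with Zn, 110.1 and 96.3 in untreated Baf180 KD cells and 376 and 308 in Baf180 KD cells with Zn CPM. Its KD libraries with Zn were the highest of all 8 and its untreated scr libraries the lowest. The corrected rise was 3.67 in scr and 1.57 in KD cells, a difference of -2.09 ± 0.18 (adjusted p = 2.06e-06). Both genes passed without the correction and in the fits without each library, with *Mt2* between -2.17 and -1.96 and *Mt1* between -1.76 and -1.34.

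Scale mattered for these genes. In CPM, *Mt1* gained 238 in scr cells and 366 in KD cells, and *Mt2* gained 174 and 239. The gain in CPM was thus larger in the KD line, while the fold rise was smaller. With Zn both genes remained above scr in KD cells, by 0.83 (adjusted p = 0.000416) for *Mt1* and 0.65 (adjusted p = 0.000152) for *Mt2* on the corrected log2 scale, compared with 2.39 and 2.75 without Zn. The Zn response of *Mt2* was 1.07 in Baf250a KD cells and 2.14 in Brd9 KD cells, and that of *Mt1* was 0.97 and 1.58.

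The exporter gene *Slc30a1* and the importer gene *Slc39a10* responded in both lines without a detectable difference. *Slc30a1*, the zinc exporter, stood at 10.8 and 11.4 in untreated scr cells, 29.9 and 27.0 in scr cells with Zn, 16.6 and 15.9 in untreated Baf180 KD cells and 36.1 and 31.1 in Baf180 KD cells with Zn CPM. Both Zn libraries lay above both untreated libraries in each line. Its corrected rise was 1.21 in scr and 1.09 in KD cells, each past the threshold, and the difference was -0.12 ± 0.20 (adjusted p = 0.774). *Slc39a10*, a zinc importer of the plasma membrane, stood at 38.7 and 33.5 in untreated scr cells, 18.6 and 18.3 in scr cells with Zn, 38.8 and 37.1 in untreated Baf180 KD cells and 17.6 and 14.4 in Baf180 KD cells with Zn CPM. It fell with Zn in each line with no overlap between treated and untreated libraries, by 1.26 and 1.15 on the log2 scale, and the difference was 0.11 ± 0.15 (adjusted p = 0.746). The sign of the difference of *Slc39a10* turned in 3 alternative settings and that of *Slc30a1* in 1, so neither has a direction here.

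**Figure D4:**
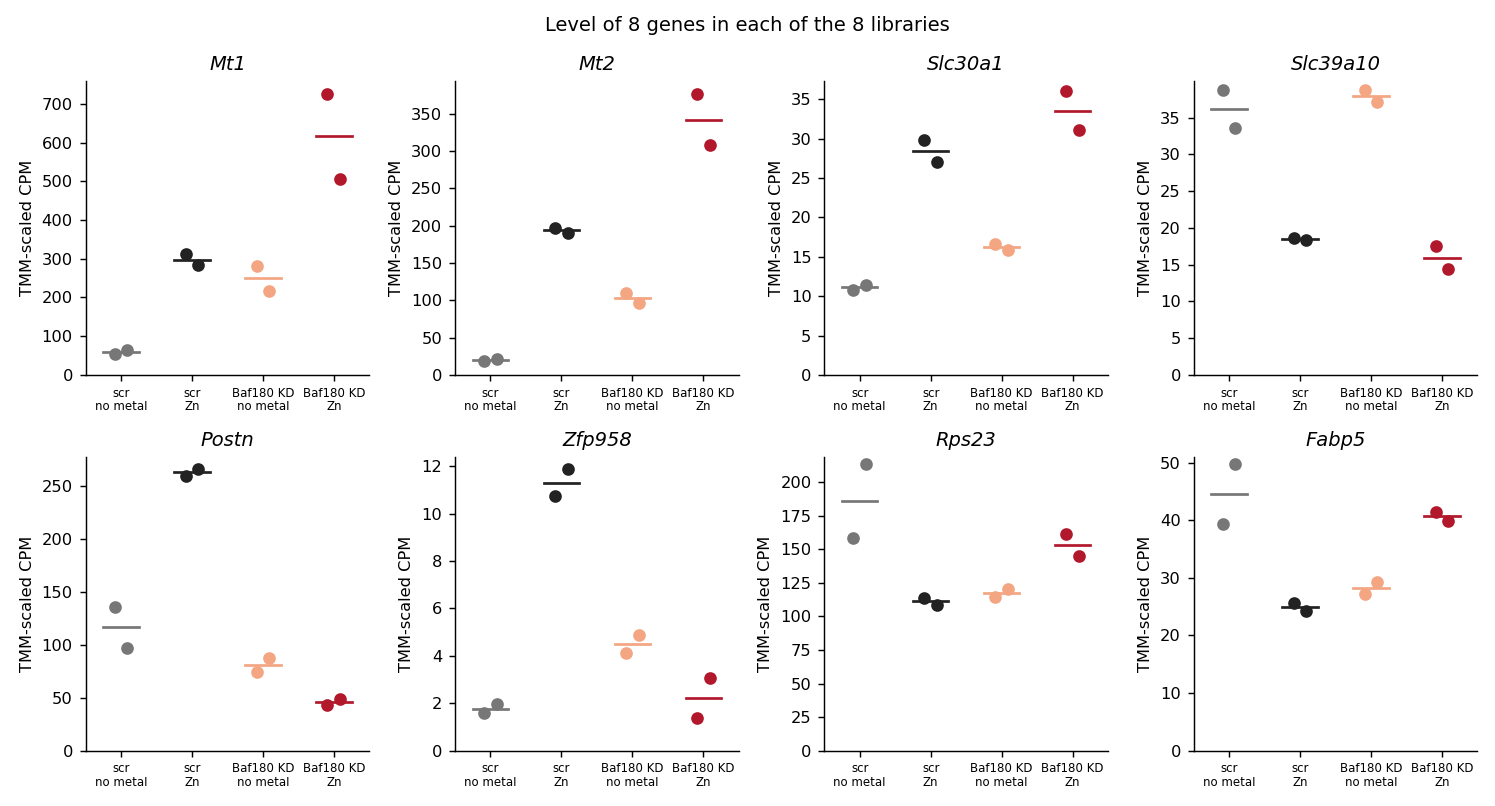
TMM-scaled CPM (vertical axis, from 0) of 8 genes in scr and Baf180 KD cells without metal and with Zn, 2 libraries a group as points and their mean as a line. Mt1, Mt2 and Slc30a1 are higher and Slc39a10 is lower with Zn in both lines, whereas Postn and Zfp958 are higher with Zn in scr cells and lower in KD cells, and Rps23 and Fabp5 the reverse.

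The metal lists were short. In the list of metal-responsive genes, 3 of 11 were kept (27.3%, beside 4.57% of all genes): *Mt1*, *Mt2* and, in the higher direction, *Selenoh*, a nuclear selenoprotein of redox control (0.53 ± 0.15, adjusted p = 0.0385). The median difference of the list was 0.25 without and 0.059 with the correction, and over all genes tested it was 0.094 and -0.0087. None of 6 Slc30 exporters and 1 of 10 Slc39 importers was kept (10% of the importers). That importer was *Slc39a7*, which releases zinc from the endoplasmic reticulum into the cytosol, at 41.7 and 48.8 in untreated scr cells, 23.97 and 22.1 in scr cells with Zn, 27.7 and 27.8 in untreated Baf180 KD cells and 33.1 and 36.3 in Baf180 KD cells with Zn CPM. It fell in scr cells (-0.64), with a KD response of 0.19 that did not pass, and the difference was 0.83 ± 0.22 (adjusted p = 0.0309). Of 13 copper genes, 2 were kept (15.4%), both higher: *Commd1*, which takes part in copper export and endosomal sorting (1.02 ± 0.19, adjusted p = 0.00474), and *Ccs*, the copper chaperone of superoxide dismutase (0.68 ± 0.20, adjusted p = 0.0448). Without untreated scr replicate 2 the corrected test called 0 higher and 2 lower in the metal-responsive list, the metallothioneins, and 0 higher and 0 lower in each of the Slc30, Slc39 and copper lists.

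The transcript of *Mtf1* itself did not differ in its response (0.21 ± 0.13, adjusted p = 0.349), with 50.9 and 48.8 in untreated scr cells, 47.1 and 41.8 in scr cells with Zn, 41.7 and 41.0 in untreated Baf180 KD cells and 47.5 and 40.7 in Baf180 KD cells with Zn CPM. The copper exporter *Atp7a* passed without the correction, at -0.49 ± 0.16 (adjusted p = 0.0256), and not with it, at -0.12 ± 0.12 (adjusted p = 0.632), and its corrected Zn response was -0.086 in KD and 0.030 in scr cells. The copper importer *Slc31a1* (0.28 ± 0.19, adjusted p = 0.407) did not pass in either fit. Oxidative stress genes gave -0.079 ± 0.16 (adjusted p = 0.822) for *Hmox1*, heme oxygenase, 0.19 ± 0.20 (adjusted p = 0.626) for *Nqo1*, a quinone reductase, and 0.093 ± 0.18 (adjusted p = 0.818) for *Gsta4*, a glutathione transferase. None of 24 NRF2 targets was kept, although 11 had passed without the correction. A list of genes with a peak annotated to their promoter was taken from the study's CUT&RUN of MTF1, made in untreated and Cu-treated wild-type myoblasts and not with Zn, using the peaks of either condition or both. This list held 8 members of 122 tested (6.56%, beside 4.57% of all genes), 4 higher and 4 lower. The lower ones were *Mt1*, *Mt2*, *Tceal8*, a nuclear protein of the TCEA-like family, and *Lims1*, an adaptor of integrin adhesions. The higher ones were *Timm13* and *Tomm40l*, of mitochondrial protein import, *Gins2*, of the replicative helicase, and *Chid1*. The corrected test without untreated scr replicate 2 called 0 higher and 3 lower of the list.

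Genes of the translation machinery supplied more of the higher members than any other group of lists used here. Of 81 cytosolic ribosomal protein genes, 20 were kept higher and 0 lower (24.7%, beside 2.05% of all genes kept higher). Before the correction 52 were called higher and 1 lower. The median difference was 0.63 without and 0.39 with the correction, made up of a median response of -0.27 in scr and 0.12 in KD cells. *Rps23*, a protein of the small subunit, stood at 158 and 214 in untreated scr cells, 114 and 109 in scr cells with Zn, 115 and 120.4 in untreated Baf180 KD cells and 161 and 145 in Baf180 KD cells with Zn CPM. Both scr libraries with Zn lay below both untreated ones, and both KD libraries with Zn lay above both untreated ones. Its difference was 1.24 ± 0.20 (adjusted p = 0.00279). *Rpl5*, which carries 5S rRNA into the large subunit, gave 1.28 ± 0.23 (adjusted p = 0.00464), *Rpl11*, its partner in that particle, 1.14 ± 0.20 (adjusted p = 0.00445), and *Rpl37a* 0.97 ± 0.20 (adjusted p = 0.00771).

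The calls in this list depended on 1 library. With each library left out in turn the median corrected difference of the cytosolic ribosomal genes stayed between 0.28 and 0.51, but without untreated scr replicate 2 only 2 passed the corrected test. With RLE size factors 18 were kept higher. Ribosomal protein genes have many processed copies, and reads that match several copies were not counted, which can lower single members.

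Mitochondrial ribosomal proteins had 10 higher and 2 lower of 77 (15.6%, beside 4.57% of all genes). Their median was 0.42 without and 0.25 with the correction. Left without untreated scr replicate 2, the corrected test called 0 higher and 0 lower, with a median of 0.20. *Mrps25*, of the small mitochondrial subunit, gave 1.01 ± 0.18 (adjusted p = 0.00468) and *Mrps26* 0.88 ± 0.19 (adjusted p = 0.0117), while *Mrpl42* went the other way (-0.89 ± 0.16, adjusted p = 0.00474). *Mrpl17* gave 1.40 ± 0.24 (adjusted p = 0.00376), but its annotated transcript of 7300 bases is long for so small a protein and the corrected value rests on it. Its value without the correction was 0.75 ± 0.18 (adjusted p = 0.00469).

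Translation factors had 5 higher and 1 lower of 42 (14.3%, beside 4.57% of all genes). Aminoacyl-tRNA synthetases, which charge tRNAs, had 5 higher and 0 lower of 34 (14.7%). The corrected test without untreated scr replicate 2 called 2 higher and 0 lower, with a median of 0.14, among the factors and 0 higher and 0 lower, with a median of 0.17, among the synthetases. *Eef1b2*, the nucleotide exchange factor of elongation factor 1, stood at 299.8 and 409 in untreated scr cells, 202 and 193 in scr cells with Zn, 231 and 209 in untreated Baf180 KD cells and 280.5 and 254 in Baf180 KD cells with Zn CPM. Zn libraries were the lower ones in scr cells and the higher ones in KD cells, and the difference was 1.21 ± 0.20 (adjusted p = 0.00299). *Eef1d* and *Eef1g*, of the same complex, gave 0.65 ± 0.15 (adjusted p = 0.0157) and 0.58 ± 0.13 (adjusted p = 0.0112), and *Eif3g*, of the initiation factor that binds the small subunit, 0.66 ± 0.11 (adjusted p = 0.00368). Among synthetases, *Lars*, for leucine, gave 0.66 ± 0.18 (adjusted p = 0.0330) and *Hars*, for histidine, 0.58 ± 0.13 (adjusted p = 0.0151). *Lars2* is treated with the ribosomal RNA genes, for a reason given there.

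Proteasome and energy genes were also kept mostly on the higher side. 10 of 40 proteasome subunits were kept higher and 1 lower (27.5% in all, beside 4.57% of all genes). The median was 0.52 without and 0.37 with the correction. Once untreated scr replicate 2 was left out, the corrected test called 0 higher and 0 lower, with a median of 0.30. *Psmb5*, the chymotrypsin-like catalytic subunit, stood at 56.5 and 72.6 in untreated scr cells, 34.3 and 29.9 in scr cells with Zn, 39.5 and 38.7 in untreated Baf180 KD cells and 59.8 and 46.1 in Baf180 KD cells with Zn CPM, lower with Zn than without it in both scr libraries. The difference was 0.97 ± 0.22 (adjusted p = 0.0134). *Psmd10*, an assembly chaperone, gave 1.14 ± 0.21 (adjusted p = 0.00468), *Psmb4* 0.83 ± 0.18 (adjusted p = 0.0120) and *Psmb1* 0.83 ± 0.19 (adjusted p = 0.0144).

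Of 80 nuclear genes of oxidative phosphorylation, 17 were kept higher and 0 lower (21.2%, beside 4.57% of all genes). The median was 0.56 without and 0.33 with the correction, with median responses of -0.24 in scr and 0.067 in KD cells. In the fit lacking untreated scr replicate 2 the corrected test called 0 higher and 0 lower, with a median of 0.26. *Atp5k*, a small subunit of ATP synthase, stood at 29.6 and 44.6 in untreated scr cells, 16.9 and 14.7 in scr cells with Zn, 12.8 and 12.8 in untreated Baf180 KD cells and 22.1 and 17.6 in Baf180 KD cells with Zn CPM. The untreated scr libraries were the highest of the 8. Its difference was 1.35 ± 0.29 (adjusted p = 0.0107). The ATP synthase subunits *Atp5j2* and *Atp5e* gave 1.18 ± 0.20 (adjusted p = 0.00368) and 1.12 ± 0.22 (adjusted p = 0.00633), and *Ndufa9*, of complex I, 1.01 ± 0.17 (adjusted p = 0.00358). Outside the list, *Tomm7*, of the outer membrane import pore, gave 1.33 ± 0.25 (adjusted p = 0.00507). Glycolysis had 3 higher and 0 lower of 21 (14.3%). They were *Pgk1*, phosphoglycerate kinase (0.65 ± 0.18, adjusted p = 0.0350), *Eno3*, the muscle enolase (0.55 ± 0.11, adjusted p = 0.00894), and *Ldha*, lactate dehydrogenase (0.53 ± 0.14, adjusted p = 0.0294). Here the fit lacking untreated scr replicate 2 called 0 higher and 0 lower, with a median of 0.24.

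Histone genes of the replication-dependent clusters had 9 higher and 0 lower of 57 (15.8%, beside 4.57% of all genes). Without the correction 27 were called higher. The median went from 0.68 to 0.14. Leaving out untreated scr replicate 2, the corrected test called 1 higher and 0 lower, with a median of 0.061. *H1f4*, a linker histone, stood at 388 and 493 in untreated scr cells, 315 and 286 in scr cells with Zn, 296 and 289.5 in untreated Baf180 KD cells and 467 and 396 in Baf180 KD cells with Zn CPM. Its scr libraries with Zn lay below the untreated ones and its KD libraries with Zn above them, with a difference of 0.82 ± 0.16 (adjusted p = 0.00752). *H2bc9* gave 1.37 ± 0.32 (adjusted p = 0.0171) and *H2ac6* 0.95 ± 0.28 (adjusted p = 0.04997), the latter at the threshold. *H1f3* had 2.06 ± 0.32 (adjusted p = 0.00277), and since its annotated transcript of 7425 bases is far longer than a linker histone message, its uncorrected difference of 0.99 ± 0.17 (adjusted p = 0.000954) is the safer value. Histone genes are near-identical copies, so reads can be lost or split between them.

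The replication list had 3 higher and 1 lower of 46 (8.70%) and a median of 0.27 without and 0.17 with the correction, and 0 higher and 0 lower, with a median of 0.14, in the corrected test without untreated scr replicate 2. *Mcm5*, of the replicative helicase, gave 0.51 ± 0.12 (adjusted p = 0.0187), *Gins2* 0.60 ± 0.16 (adjusted p = 0.0253) and *Fen1*, the flap endonuclease, 0.38 ± 0.11 (adjusted p = 0.0380), while *Ccne2*, cyclin E2, was lower (-1.07 ± 0.20, adjusted p = 0.00569).

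Other single genes stood high among the members. *Fabp5*, a fatty acid binding protein, stood at 39.4 and 49.7 in untreated scr cells, 25.7 and 24.3 in scr cells with Zn, 27.2 and 29.3 in untreated Baf180 KD cells and 41.4 and 39.9 in Baf180 KD cells with Zn CPM. Zn-treated libraries lay below untreated ones in scr cells and above them in KD cells. The difference was 1.53 ± 0.24 (adjusted p = 0.00279), and it passed without each library in turn. *Gtf2h5*, the smallest subunit of TFIIH, gave 1.38 ± 0.24 (adjusted p = 0.00368), *Hmgn2*, a nucleosome-binding protein, 1.24 ± 0.21 (adjusted p = 0.00375), *Rbm3*, a cold-inducible RNA-binding protein, 1.20 ± 0.21 (adjusted p = 0.00432), and *Rbbp4*, a histone chaperone shared by several chromatin complexes, 1.01 ± 0.19 (adjusted p = 0.00607).

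**Figure D5:**
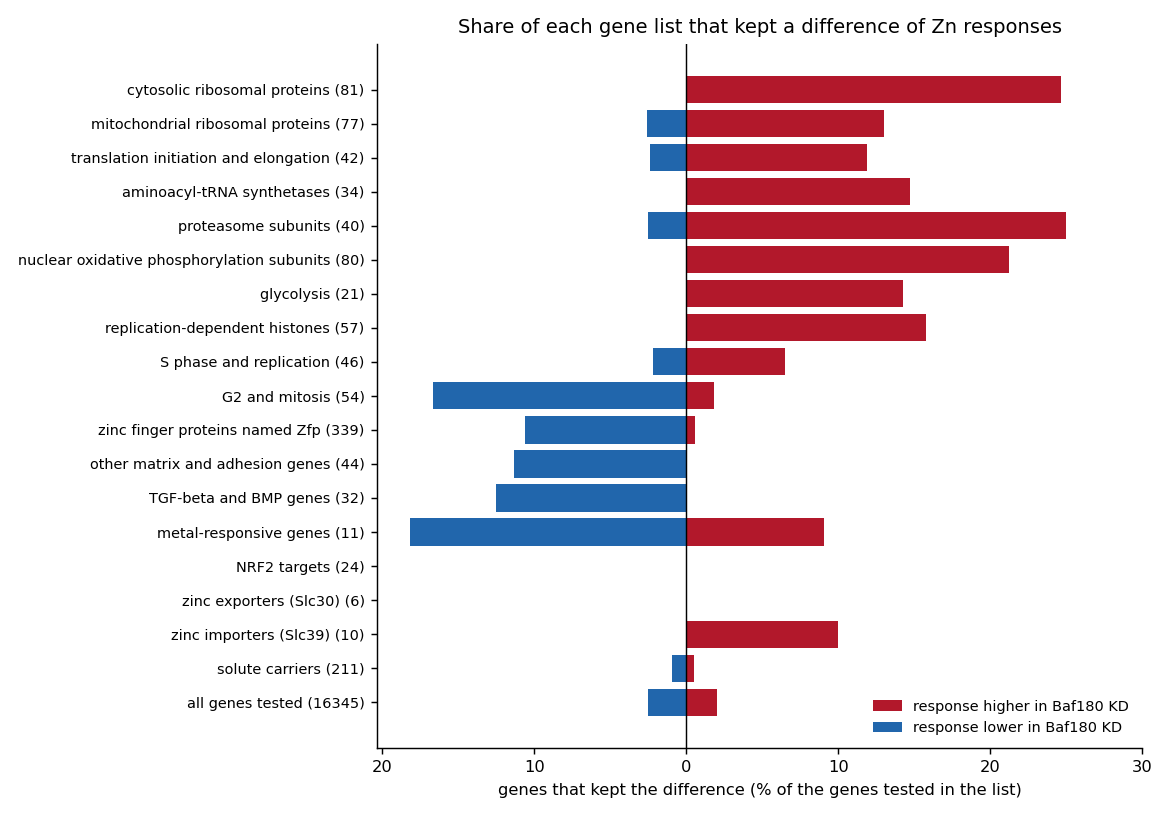
Percent of the genes tested in each list (number in brackets) that kept a difference of Zn responses, to the right in red where the response was higher and to the left in blue where it was lower in Baf180 KD cells. Cytosolic ribosomal, proteasome and oxidative phosphorylation lists extend to the right, and G2 and mitosis, Zfp, matrix and TGF-beta lists to the left, beside 2.05% and 2.52% for all genes.

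On the lower side, the list of matrix and adhesion genes had 0 higher and 5 lower of 44 (11.4%), with a median of 0.14 without and -0.12 with the correction. Leaving out untreated scr replicate 2 gave 0 higher and 2 lower, with a median of -0.14. *Postn*, periostin, a secreted matrix protein, stood at 136 and 96.9 in untreated scr cells, 259.5 and 267 in scr cells with Zn, 73.9 and 87.6 in untreated Baf180 KD cells and 42.8 and 48.8 in Baf180 KD cells with Zn CPM. Both scr libraries with Zn were the highest of the 8 and both KD libraries with Zn the lowest. The corrected response was 0.92 in scr and -0.72 in KD cells, the first past the threshold and the second not (adjusted p = 0.110), and the difference was -1.64 ± 0.23 (adjusted p = 0.00119).

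*Vcan*, the proteoglycan versican, stood at 55.0 and 46.8 in untreated scr cells, 75.8 and 77.3 in scr cells with Zn, 393 and 381 in untreated Baf180 KD cells and 289.9 and 304 in Baf180 KD cells with Zn CPM. It was far higher in every KD library than in any scr library, higher with Zn in scr cells and lower with Zn in KD cells, and the difference was -1.16 ± 0.16 (adjusted p = 0.00119). *Ogn*, osteoglycin, stood at 15.2 and 10.1 in untreated scr cells, 61.7 and 64.1 in scr cells with Zn, 104 and 136 in untreated Baf180 KD cells and 37.7 and 88.6 in Baf180 KD cells with Zn CPM and gave -1.98 ± 0.38 (adjusted p = 0.00574). Its KD libraries with Zn were the more spread, but both lay below both untreated KD libraries. *Ccn2* and *Ccn3*, matricellular proteins, gave -0.75 ± 0.15 (adjusted p = 0.00892) and -0.82 ± 0.20 (adjusted p = 0.0190), and *Ccn3* fell in KD cells (-0.73, adjusted p = 0.0128) without a call in scr cells. Of 22 collagen genes 1 was kept, *Col8a1* (-0.49 ± 0.12, adjusted p = 0.0205), a share of 4.55% beside 4.57% of all genes.

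TGF-beta and BMP genes had 0 higher and 4 lower of 32 (12.5%, beside 4.57% of all genes). Their median was 0.064 without and -0.10 with the correction. *Grem1*, a secreted BMP antagonist, stood at 104 and 62.7 in untreated scr cells, 144 and 138 in scr cells with Zn, 580.0 and 657 in untreated Baf180 KD cells and 418 and 474 in Baf180 KD cells with Zn CPM and gave -0.91 ± 0.23 (adjusted p = 0.0247). *Inhba*, a subunit of activin, gave -0.75 ± 0.20 (adjusted p = 0.0298), *Tgfb2*, a ligand, -0.61 ± 0.17 (adjusted p = 0.0330), and *Bmpr2*, a receptor, -0.53 ± 0.14 (adjusted p = 0.0329). The level of *Grem1* was higher in all 4 KD libraries than in any scr library, whereas *Inhba*, at 245 and 157 in untreated scr cells, 371 and 352 in scr cells with Zn, 133 and 169 in untreated Baf180 KD cells and 84.3 and 101 in Baf180 KD cells with Zn CPM, had its highest levels in scr cells with Zn. The calls in this list moved with the libraries: without untreated scr replicate 2, the corrected test called 0 higher and 0 lower, with a median of -0.11.

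Genes of zinc finger proteins named Zfp, most of them DNA-binding repressors of the KRAB type, formed the longest list used here and gave the largest number of lower members. They had 2 higher and 36 lower of 339 (11.2%, beside 4.57% of all genes), after 127 were called lower without the correction. In the decile of GC content from 44.55% to 46.67%, which holds the median of this list, 7.86% of protein-coding genes were kept. The share kept was larger in some shorter lists, such as G2 and mitosis (18.5%). The median was -0.47 without and -0.24 with the correction, from 0.16 in scr and -0.083 in KD cells. *Zfp958* stood at 1.59 and 1.95 in untreated scr cells, 10.7 and 11.9 in scr cells with Zn, 4.12 and 4.90 in untreated Baf180 KD cells and 1.38 and 3.05 in Baf180 KD cells with Zn CPM. The scr libraries with Zn were the highest of the 8 and the untreated scr libraries and the KD libraries with Zn the lowest. Its difference was -2.50 ± 0.49 (adjusted p = 0.00638). *Zfp970*, at 0.255 and 0.325 in untreated scr cells, 2.78 and 3.22 in scr cells with Zn, 0.852 and 1.40 in untreated Baf180 KD cells and 0.290 and 0.683 in Baf180 KD cells with Zn CPM, gave -3.68 ± 0.67 (adjusted p = 0.00464), a large value resting on few reads in untreated scr cells. *Zfp729a* gave -1.75 ± 0.38 (adjusted p = 0.0120), *Zfp51* -1.71 ± 0.44 (adjusted p = 0.0253), *Zfp942* -1.69 ± 0.42 (adjusted p = 0.0218) and *AI987944*, outside the list, -1.79 ± 0.43 (adjusted p = 0.0181). Zfp genes are AT-rich, with a median GC content of 44.6% in this list, where the uncorrected difference was largest. They also occur in families of similar copies, so counts can be split between them. Without untreated scr replicate 2, 2 passed in the lower direction and the median was -0.23.

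Genes of G2 and mitosis had 1 higher and 9 lower of 54 (18.5%), with a median of -0.085 without and -0.10 with the correction. In the corrected test lacking untreated scr replicate 2 the calls were 0 higher and 0 lower, with a median of -0.076. *Mki67*, the chromosome surfactant used as a proliferation marker, stood at 211 and 133 in untreated scr cells, 474 and 479 in scr cells with Zn, 263 and 357 in untreated Baf180 KD cells and 230.0 and 298 in Baf180 KD cells with Zn CPM. Both scr libraries with Zn were the highest of the 8, and the KD groups overlapped. The response was 1.33 in scr and -0.16 in KD cells, with a difference of -1.49 ± 0.37 (adjusted p = 0.0223). *Smc4* and *Smc2*, the core of condensin, gave -1.33 ± 0.33 (adjusted p = 0.0232) and -1.08 ± 0.31 (adjusted p = 0.0420), *Kif18a*, a kinesin that aligns chromosomes, -1.30 ± 0.39 (adjusted p = 0.0480), and *Depdc1a*, a mitotic gene outside the list, -2.08 ± 0.40 (adjusted p = 0.00580). The median corrected response of the list was 0.18 in scr and 0.073 in KD cells, and 18 of its genes rose and 0 fell in scr cells. In bulk libraries a change in the share of dividing cells and a change of these transcripts per cell cannot be told apart.

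Further genes with the lowest differences came from many functions. *Sh3bgrl*, a small thioredoxin-fold protein, stood at 32.9 and 20.7 in untreated scr cells, 119 and 127 in scr cells with Zn, 55.3 and 86.9 in untreated Baf180 KD cells and 27.4 and 51.8 in Baf180 KD cells with Zn CPM. Its scr libraries with Zn were the highest of the 8. The difference was -1.77 ± 0.29 (adjusted p = 0.00358), and it passed without each library in turn. *Micu3*, a regulator of the mitochondrial calcium uniporter, gave -2.03 ± 0.35 (adjusted p = 0.00368), *Cops2*, a subunit of the COP9 signalosome, -1.80 ± 0.39 (adjusted p = 0.0105), *Samd9l*, an interferon-induced antiviral gene, -2.09 ± 0.51 (adjusted p = 0.0207), *Lrrcc1*, a centrosomal protein, -1.76 ± 0.41 (adjusted p = 0.0158), and *Tyw5*, of tRNA modification, -1.84 ± 0.43 (adjusted p = 0.0153). None of these 5 passed the test of the Zn response of KD cells.

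Stress lists other than the metal genes are read against the 4.57% of all genes that were members, and each of those named here had 0 calls in the corrected test without untreated scr replicate 2. Heat shock chaperones had 1 higher and 1 lower of 20 (10%), *Hspa9*, the mitochondrial Hsp70 (0.66 ± 0.15, adjusted p = 0.0174), and *Hsp90aa1*, the inducible Hsp90 (-1.15 ± 0.34, adjusted p = 0.0444). The ATF4 list had 2 higher and 1 lower of 20 (15%), with *Pck2* and *Mthfd2*, mitochondrial enzymes of gluconeogenesis and folate metabolism, higher (0.61 ± 0.15, adjusted p = 0.0211, and 0.49 ± 0.13, adjusted p = 0.0265) and *Nupr1*, a stress-induced chromatin protein, lower (-1.04 ± 0.23, adjusted p = 0.0112). Of 20 p53 targets only *Rrm2b*, a ribonucleotide reductase subunit, was kept (-0.56 ± 0.16, adjusted p = 0.0459), which is 5%, and none of 34 apoptosis genes was, after 9 higher and 5 lower calls without the correction. Solute carriers had 1 higher and 2 lower of 211 (1.42%, under the 4.57% of all genes).

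Among chromatin genes, 2 of 27 SWI/SNF subunits were kept (7.41%), both lower, and 0 higher and 0 lower passed the corrected test without untreated scr replicate 2. They were *Pbrm1* itself (-0.62 ± 0.17, adjusted p = 0.0367) and *Ss18* (-0.52 ± 0.13, adjusted p = 0.0234), a subunit of the BAF and non-canonical forms. *Pbrm1* rose with Zn in scr cells (0.47) and gave -0.14 in KD cells, where the shRNA acts on the transcript. The difference of *Ss18* was 0.018, with the sign turned and no call, when GC content and length were taken from the longest transcript of each gene. Of 47 histone and DNA methylation enzymes, 1 was kept higher and 1 lower (4.26%, beside 4.57% of all genes). They were *Prmt1* (0.43 ± 0.12, adjusted p = 0.0404) and *Jmjd1c*, of the family of histone demethylases (-0.80 ± 0.21, adjusted p = 0.0282). Among 37 acetylation enzymes and bromodomain proteins 0 were kept higher and 2 lower (5.41%). They were *Sirt1*, a deacetylase (-0.9954 ± 0.18, adjusted p = 0.00468), and *Ncor1* (-0.41 ± 0.11, adjusted p = 0.0371). Of 28 remodelers outside SWI/SNF only *Rbbp4*, given above, was kept (3.57%).

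Among muscle genes, the members came from the regulators and the sarcomere. *Mef2a*, a transcription factor of muscle genes, stood at 111 and 84.7 in untreated scr cells, 159 and 164 in scr cells with Zn, 140.0 and 139 in untreated Baf180 KD cells and 105 and 115 in Baf180 KD cells with Zn CPM, with scr cells higher and KD cells lower in the presence of Zn. Its difference was -0.91 ± 0.15 (adjusted p = 0.00299), and it was 1 of 2 kept among 21 myogenic regulators, with *Eya4*, a transcriptional co-activator and phosphatase (-0.54 ± 0.11, adjusted p = 0.00894), a share of 9.52% beside 4.57% of all genes. Of 36 sarcomere and fusion genes only *Myl1*, a myosin light chain, was kept (-1.03 ± 0.24, adjusted p = 0.0150), a share of 2.78%. Without untreated scr replicate 2 the corrected test called 0 higher and 1 lower among the regulators and 0 higher and 0 lower among the sarcomere genes. No myoblast marker was kept, nor any of the markers of macrophages, endothelial cells, adipocytes, neural or epithelial cells.

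The largest higher values came from genes whose reads are linked to ribosomal RNA or satellite repeats. *mt-Rnr1*, mitochondrial 12S rRNA, stood at 428 and 103 in untreated scr cells, 14.0 and 20.0 in scr cells with Zn, 20.0 and 23.6 in untreated Baf180 KD cells and 53.7 and 16.4 in Baf180 KD cells with Zn CPM. The untreated scr libraries were the highest of the 8 and differed from each other by several fold. Its difference was 6.05 ± 1.15 (adjusted p = 0.00569). Of 12 transcripts of the mitochondrial genome tested, 2 were kept (16.7%, beside 4.57% of all genes), both rRNAs and both higher. Without the correction 7 of the 12 were called lower, beside 12.6% of all genes, and with it 0 were. The median difference of this list was -1.57 without and -0.49 with the correction. *Gm10800*, in a satellite repeat, stood at 47.0 and 7.38 in untreated scr cells, 0.445 and 0.279 in scr cells with Zn, 16.2 and 11.6 in untreated Baf180 KD cells and 63.8 and 12.7 in Baf180 KD cells with Zn CPM, lowest in the scr libraries with Zn, and gave 9.23 ± 1.19 (adjusted p = 0.000957). *Lars2*, whose locus holds a stretch similar to ribosomal RNA, stood at 1384 and 652 in untreated scr cells, 24.8 and 30.5 in scr cells with Zn, 205 and 54.6 in untreated Baf180 KD cells and 106 and 41.9 in Baf180 KD cells with Zn CPM and gave 4.16 ± 1.09 (adjusted p = 0.0276). The libraries were depleted of rRNA, and the share of counts in such genes, given above, was highest in untreated scr cells. The part of depletion in these values was not tested.

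Genes that lost the call with the correction show its size. *Zfp943*, a zinc finger gene, went from -2.56 ± 0.61 (adjusted p = 0.00456) to -1.32 ± 0.41 (adjusted p = 0.0586), and *Esf1*, of ribosome assembly, from -2.46 ± 0.65 (adjusted p = 0.00854) to -1.44 ± 0.46 (adjusted p = 0.0667). *H2ac13*, a histone H2A gene with near-identical copies, went from 1.4997 ± 0.48 (adjusted p = 0.0230) to 0.79 ± 0.44 (adjusted p = 0.305). All 3 kept their sign. Median GC content was 41.8% among the lower genes that lost the call and 55.8% among the higher ones.

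The 34 genes called without each library in turn were 23 lower and 11 higher. The lower ones included both metallothioneins, *Postn*, *Vcan*, *Zfp958*, *Zfp970*, *Sh3bgrl*, *Mef2a* and *Tceal8* described above, and also *Sp4*, a zinc finger transcription factor (-1.51), *Filip1l*, a regulator of the cytoskeleton (-1.05), *Pappa*, a metalloproteinase that cleaves IGF-binding proteins (-0.68), *Rbms1* and *Msi2*, RNA-binding proteins (-0.96 and -0.83), and *Lrrn1*, a leucine-rich membrane protein (-1.09). The higher ones included *Rps23*, *Eef1b2*, *Eif3g*, *Fabp5*, *H1f3* and *Gm10800*, and also *Rpl9*, a ribosomal protein (0.94), *Polr1c*, a subunit of RNA polymerases I and III (0.77), and *Itgb1bp1*, an integrin-binding protein (0.87). The genes that the preceding paragraphs do not describe were named for passing these fits, after their values were seen. The values in brackets are corrected log2 differences.

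The other KD lines were given Zn in the same series, and their own responses, which share no library with the 8 compared, can be set beside these. Among the 335 higher members the median corrected response was -0.42 in scr, 0.24 in Baf180 KD, 0.36 in Baf250a KD and 0.015 in Brd9 KD cells. Among the 412 lower members it was 0.57, -0.26, -0.35 and 0.0040. The differences of these medians between the lines were not tested, and the scr and Baf180 KD medians follow in part from the choice of members. *Rps23* responded with 0.49 in Baf250a and 0.12 in Brd9 KD cells, and *Postn* with -0.72 and 0.0098. Zn changed 1227 genes in Baf250a KD cells (7.51%) and 8 in Brd9 KD cells (0.0489%) after the correction, and 1 of the Zn-treated Baf250a KD libraries was shallow, with 495778 counts.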

How the data were processed

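Reads of rRNA-depleted, strand-specific libraries had been aligned to mm10 with STAR and counted per gene with featureCounts by the authors, who deposited raw counts of uniquely mapped fragments. Versions and the annotation used for counting are not given in the sources used here. The submitters' processing notes also name deepTools and DESeq2. Deposited tables of the authors' own comparisons, with log2 fold changes and p-values, were not used.

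Samples were grouped by title, although the treatment tag of the labels goes against the titles of most libraries. All 24 libraries entered 1 model of 12 conditions (edgeR 4.0.16 in R 4.3.3, TMM, filterByExpr, quasi-likelihood F test with 12 residual degrees of freedom, Benjamini-Hochberg adjusted p under 0.05), and the 8 libraries described formed the contrast. Replicates are described as independent cultures. For the correction, natural splines with 5 degrees of freedom each on GC content and log2 length of the principal transcript (GENCODE, GRCm38) were fitted to the log2 CPM of each library, taken relative to the gene's mean with a prior count of 2, and entered as offsets. The 55291 symbols in the table were matched to the annotation by name (53292) or by a renamed RefSeq symbol (354). A member passed both tests with the same sign.

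The text names 11 metal and target genes, the 15 highest and 15 lowest protein-coding members that averaged 100 or more normalized counts and whose sign held without each of the 8 libraries, up to 4 members of each list, and 3 genes in each direction that lost the call. Some genes under this rule are not reported here. Other genes are named as chosen after their values were seen. The members and lists were chosen with earlier results of these data known. Alternatives were other size factors, filters, DESeq2 1.42.0, other sets of libraries, thinning, a replicate block and other forms of the correction. The code was tested on simulated counts. A low count limits precision, and errors cover these cultures only.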

Additional observations from a re-analysis of the deposited data

Results flagged for a closer look

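The test of the difference between the Zn responses of the 2 lines called 335 members with a higher and 412 with a lower response in Baf180 KD cells in the corrected fit as well as in the uncorrected one. Among named genes, the corrected log2 difference was 9.23 for *Gm10800*, 4.16 for *Lars2*, 2.06 for *H1f3*, 1.53 for *Fabp5*, 1.40 for *Mrpl17*, 1.38 for *Gtf2h5*, 1.37 for *H2bc9* and 1.35 for *Atp5k*. Smaller positive values were 1.33 for *Tomm7*, 1.28 for *Rpl5*, 1.24 for *Hmgn2*, 1.24 for *Rps23*, 1.21 for *Eef1b2*, 1.20 for *Rbm3* and 1.18 for *Atp5j2*. Negative values were -2.50 for *Zfp958*, -2.09 for *Mt2*, -2.09 for *Samd9l*, -2.08 for *Depdc1a*, -2.03 for *Micu3*, -1.98 for *Ogn*, -1.84 for *Tyw5*, -1.80 for *Cops2* and -1.79 for *AI987944*. Further negative values were -1.77 for *Sh3bgrl*, -1.76 for *Lrrcc1*, -1.75 for *Zfp729a*, -1.71 for *Zfp51*, -1.69 for *Zfp942*, -1.56 for *Mt1* and -0.62 for *Pbrm1*. Of these genes, *Gm10800*, *H1f3*, *Fabp5*, *Rps23*, *Eef1b2*, *Zfp958*, *Mt2*, *Sh3bgrl* and *Mt1* passed the corrected test without each of the 8 libraries in turn. The test for a sample far from the others of its group needs at least 4 samples and was not run on groups of 2.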

How the results depend on the processing

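Of the corrected values of single genes under the alternatives, 2507 kept their direction and side of the threshold, 774 lost the call, 29 gained it and 10 turned sign. Without the correction the counts were 2290, 367, 0 and 1. With each of the 8 libraries left out in turn, genes called for the difference ranged from 1883 to 5185 without and from 41 to 1362 with the correction, and members from 39 to 1057. Genes called for the Zn response of scr cells ranged from 213 to 5154 without and from 18 to 1264 with the correction. Those for Baf180 KD cells ranged from 2 to 17 and from 4 to 19, the lowest without replicate 1 with Zn. The other lows all came without untreated scr replicate 2.

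With a minimum fold change of 1.5, calls were 345 without and 4 with the correction for the difference, 4 members, 51 and 21 for scr cells, and 2 and 2 for Baf180 KD cells. With scr replicate 1 alone (chosen after the data were seen) they were 29 and 2 for the difference, 2 members, 5 and 5 for scr cells, and 9 without the correction for Baf180 KD cells. With scr replicate 2 alone (likewise) they were 494 for scr cells with and 9 for Baf180 KD cells without the correction. With no filter beyond 1 count in all, there were 2615 corrected calls of the difference, 2403 members, 2533 corrected calls in scr cells, and 338 and 296 in Baf180 KD cells. Fitting only the 8 libraries gave 1931 corrected calls, 1210 members, 2135 corrected calls in scr cells and 5 uncorrected calls in Baf180 KD cells. Fitting the 12 libraries of both lines gave 645, 471 members, and 3 and 9 in Baf180 KD cells. Leaving out the shallow library gave 1568, 1183 members and 36 corrected calls in Baf180 KD cells. Thinning to the smallest total gave 1635, and 4 and 34 in Baf180 KD cells. Correcting for length alone gave 4609, 4058 members and 4835 in scr cells. In Baf180 KD cells DESeq2 called 63 without and 61 with the correction, and RLE size factors 34 with it. Where a count moved for a reason other than fewer or more samples or genes, the cause was not tested.

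Of the corrected calls of the difference, 49.3% were higher, and 31.4% with RLE size factors, 31.6% with DESeq2, 31.4% with the 8 libraries and 28.5% with the 12. Without the correction, 56.1% were higher, and 47.8%, 48% and 46.4% in the first 3 of these and 45.4% with the 12.

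Replicate numbers did not pair the samples: correlations of the replicate differences between groups ran from -0.1405 to 0.2472. With a replicate block 794 genes were kept, and uncorrected calls in Baf180 KD cells went from 14 to 8.

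Signs turned for genes with no call, *Gsta4* with thinning (-0.036), *Hmox1* (-0.21 to 0.066 over the fits that left out 1 library, above 0 without untreated Baf180 KD replicate 1 and, at 0.019, without Baf180 KD replicate 2 with Zn, and 0.19 for length alone), *Slc30a1* (0.016 with scr replicate 2 alone), *Slc31a1* (-0.21 to 0.012 uncorrected over the fits that left out 1 library, above 0 without untreated Baf180 KD replicate 1, and -0.033 for length alone) and *Slc39a10* (-0.070 to 0.27 over the fits that left out 1 library, below 0 without Baf180 KD replicate 1 with Zn, and -0.13 with no filter beyond 1 count and -0.14 for length alone). The exception among the named genes is *Ss18*, a member, at 0.018 with the longest transcript. In that fit 732 of the 747 members kept the sign of the corrected difference. Depth limited genes of few counts, such as *Zfp970* in untreated scr cells.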
